A study of Mus musculus with 40 samples.

Results

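The vascular endothelial growth factor (VEGF) and angiopoietin systems were followed in sorted cells of mouse colon tumors, healthy colon and blood through 10 genes. These were 4 VEGF family ligands (Vegfa, Vegfb, Vegfc and Pgf), 1 angiopoietin (Angpt2) and 5 receptors (Flt1, Kdr, Nrp1, Tek and Tie1). Members were taken by gene symbol from the deposited gene tables, where each symbol matched 1 row, so that 10 of 45706 genes were described. The series held 40 RNA-seq libraries in 10 groups of 4. Tumor-bearing mice carried Cdx2CreERT2 and Apc fl/fl and received Tamoxifen once, intraperitoneally, at 25 mg/kg and, by the labels, at an age of 8 to 10 weeks, for which the study's methods give a wider span. Their strain was labelled C57Bl6/Sv followed by a number that ran up from library to library. Healthy mice were C57Bl6 with no transgene and no agent, and their age was not labelled. Tumor, strain, transgene and Tamoxifen therefore differed together between tumor-bearing and healthy mice and cannot be told apart.

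The Cdx2 promoter drives the Tamoxifen-dependent Cre in intestinal epithelium, so that Apc, a brake on Wnt signalling, can be deleted there. From colon and from tumors the study sorted CD45- EpCAM+ cells (epithelial) and CD45- EpCAM- cells (stromal). Among CD45+ CD11b+ MHCII- cells of blood and tumors it sorted Ly6G+ Ly6C-low cells (neutrophils) and Ly6G- Ly6C-high cells (monocytes). Before sorting, tissue was minced and digested with enzymes, whereas blood had its red cells lysed. Site and handling therefore differed together between tumor and blood cells and cannot be told apart. The titles of 4 blood libraries join a pair of numbers each, which reads as a pool of mice. No source used here says that title numbers mark mice or that every other library came from a different mouse. Some numbers recur between tumor and blood libraries of tumor-bearing mice. The fits of tumor against blood, and the interaction, had no block for them. The p-values measure the spread between these libraries.

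VEGF-A is the main growth signal of blood vessels. It binds Kdr (VEGFR-2), which carries most of the signal in endothelial cells, and Flt1 (VEGFR-1), which binds VEGF-A more tightly, signals weakly and also binds VEGF-B and placental growth factor (encoded by Pgf). Nrp1 is a co-receptor shared with class 3 semaphorins. VEGF-C acts mainly through Flt4 on lymphatic vessels. Angiopoietin-2, made by endothelial cells that sprout or regress, modulates the receptor Tie2 (encoded by Tek), and Tie1 is the partner of Tie2. Vegfa is a classical target of hypoxia-inducible factors, and tumor macrophages and neutrophils are known sources of it.

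Levels are given in RPKM (reads scaled to gene length and to library size), which allows genes of different length to be compared. Changes are log2 fold changes ± standard error (SE) from the counts, and a gene was called when the Benjamini-Hochberg adjusted p of the edgeR quasi-likelihood test over all genes tested was under 0.05. Libraries held 10716847 to 38002110 counts on genes, with a median of 16337511.5. Mitochondrial genes took 5.34 to 83.9% of them, and in the sorted epithelium they took 48.6 to 83.9% in healthy and 46.3 to 60.5% in tumor libraries. Several sorted populations held transcripts of other cells. The median of 10 epithelial markers, as a percent of the tumor epithelial level, was 69.8, 12.7, 15.5 and 5.06% in tumor neutrophil replicates 1 to 4 and 97.0, 51.9, 19.9 and 12.1% in tumor stromal replicates 1 to 4. It was 0.613 to 14.3% in tumor monocytes, at most 10.1% in healthy stroma and at most 0.351% in blood. The median of 12 blood endothelial markers, as a percent of the healthy stromal mean, was 2.13, 2.45, 113 and 93.8% in tumor stromal replicates 1 to 4. It was 111, 109, 156 and 18% in healthy stromal replicates 1 to 4. Tumor stromal replicates 1 and 2 were thus almost without endothelial transcripts, and fibroblast markers were at 1.17 to 3.85% of the healthy stromal mean in all 4 tumor stromal libraries. Values without tumor stromal replicates 1 and 2 are given for some of the results that rest on them, and the other results include these replicates.

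The ligands differed in the groups that held most of them. Vegfa was highest in tumor monocytes, with a mean of 39.5 ± 15.1 RPKM (SD, n = 4). Healthy stroma (7.89), tumor neutrophils (7.72), tumor epithelium (5.71) and tumor stroma (5.13) followed, and each of these overlapped its neighbour in the order. Vegfc, the lymphatic ligand, was highest in healthy stroma at 6.73 ± 0.948 RPKM, clear of tumor stroma at 1.93. Vegfb reached at most 2.05 RPKM and Angpt2 at most 2.43 RPKM in any library, and neighbouring groups in their order overlapped throughout. Pgf was highest in tumor epithelium, at 0.963 ± 0.529 RPKM.

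The receptors were led by healthy stroma, the gate that holds endothelial cells. Mean levels there were 27.4 ± 9.58 RPKM for Nrp1, 22.4 ± 12.4 for Flt1, 16.2 ± 9.34 for Kdr, 12 ± 0.990 for Tek and 5.21 ± 3.28 for Tie1. Kdr, Tek and Tie1 came next in tumor stroma, at 6.83, 4.69 and 2.84 RPKM, and their means outside both stromal groups were at most 0.283 RPKM. Flt1 and Nrp1 were wider. Flt1 reached 3.53 ± 0.634 RPKM in tumor epithelium, overlapping the 14.7 ± 12.9 of tumor stroma and clear of 1.25 ± 0.130 in healthy blood monocytes. Nrp1 was at 9.66 ± 1.24 RPKM in healthy blood monocytes and 6.26 ± 1.69 in blood monocytes of tumor-bearing mice, which overlapped tumor stroma (6.68 ± 7.45).

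**Figure D1:**
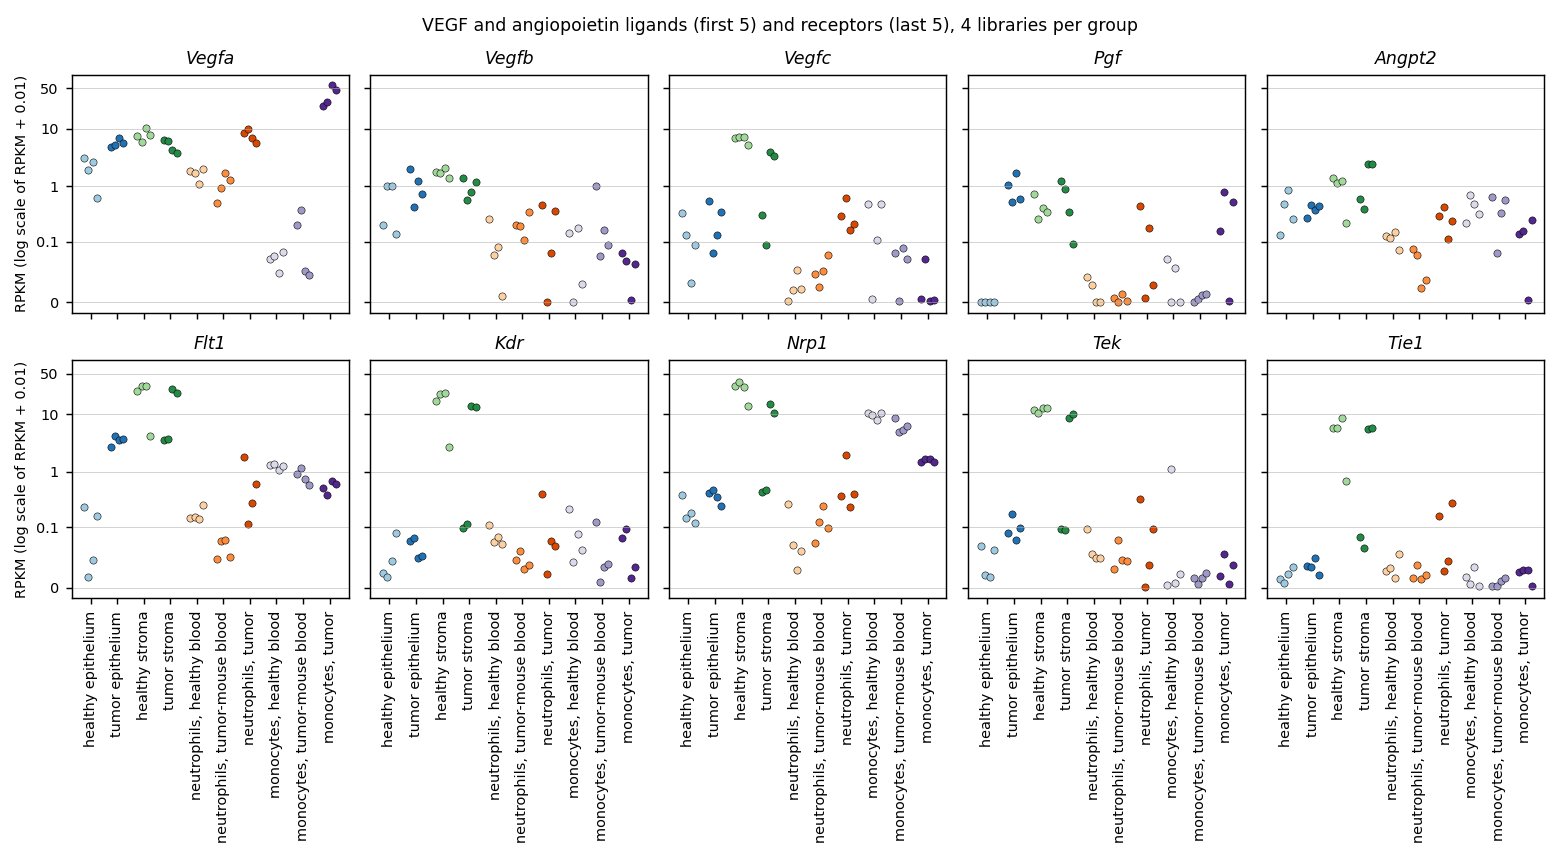
RPKM of each of the 10 genes (log scale of RPKM + 0.01) in the 10 groups, 1 point per library, ligands above and receptors below. Vegfa peaked in tumor monocytes, whereas Kdr, Tek and Tie1 were high in the stromal groups, in which tumor replicates 1 and 2 lay far below replicates 3 and 4.

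The genes whose levels ran closest to each member over the 40 libraries were ranked by Pearson's r of log2(RPKM + 1), as a description, since the libraries were shared by all genes and fell into cell types. Kdr was closest to Emcn (r = 0.997), Robo4 (0.996) and Shank3 (0.995), and Tie1 to Emcn (0.995), Shank3 (0.994) and Bcl6b (0.994). Emcn and Robo4 encode endothelial surface proteins. Tek was closest to Jam2 (0.987), Ackr1 (0.985) and Dlc1 (0.985), and Flt1 to Podxl (0.966), Cdh5 (0.961) and Rasgrp3 (0.957). Nrp1 was led by Ace (0.946), Kctd12b (0.942) and Pros1 (0.938), and Vegfc by Ehd2 (0.979), Hspg2 (0.979) and Pdgfd (0.979). Vegfa had its own set, Thbs1 (0.888), Ralgds (0.885) and Zfand2a (0.883). Vegfb was closest to Klf12 (0.883) and Angpt2 to C530043K16Rik (0.879). Between members, r was 0.992 for Kdr with Tie1 and 0.953 for Kdr with Tek, but 0.202 for Vegfa with Kdr.

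The promoters of the 4 endothelial receptor tyrosine kinases are shown because these genes were highest in stroma and, in the tumor stromal libraries, were all low in replicates 1 and 2. The windows run from 250 bases before to 50 bases after the annotated start (RefSeq, GRCm38.p6), and capitals mark GGAA or its reverse complement TTCC, the core bound by ETS factors, a family with many endothelial members.
Flt1 (chr5:147725962-147726261, minus strand): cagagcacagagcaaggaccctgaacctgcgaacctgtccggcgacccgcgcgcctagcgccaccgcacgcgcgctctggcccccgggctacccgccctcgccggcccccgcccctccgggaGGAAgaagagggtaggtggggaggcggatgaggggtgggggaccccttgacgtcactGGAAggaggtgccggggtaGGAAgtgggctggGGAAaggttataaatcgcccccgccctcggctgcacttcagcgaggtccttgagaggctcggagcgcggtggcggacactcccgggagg
Kdr (chr5:75978406-75978705, minus strand): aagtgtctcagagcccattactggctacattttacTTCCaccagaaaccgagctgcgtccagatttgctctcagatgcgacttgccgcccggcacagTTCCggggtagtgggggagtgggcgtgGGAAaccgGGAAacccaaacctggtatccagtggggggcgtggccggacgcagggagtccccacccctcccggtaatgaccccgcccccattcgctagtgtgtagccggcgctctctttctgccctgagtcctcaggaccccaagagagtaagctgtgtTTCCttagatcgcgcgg
Tek (chr4:94739039-94739338, plus strand): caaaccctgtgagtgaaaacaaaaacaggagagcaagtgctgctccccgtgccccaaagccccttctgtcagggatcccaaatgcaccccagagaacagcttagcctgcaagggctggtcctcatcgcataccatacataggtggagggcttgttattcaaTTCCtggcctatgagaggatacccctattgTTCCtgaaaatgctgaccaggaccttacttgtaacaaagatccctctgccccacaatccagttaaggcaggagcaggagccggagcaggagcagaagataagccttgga
Tie1 (chr4:118489800-118490099, minus strand): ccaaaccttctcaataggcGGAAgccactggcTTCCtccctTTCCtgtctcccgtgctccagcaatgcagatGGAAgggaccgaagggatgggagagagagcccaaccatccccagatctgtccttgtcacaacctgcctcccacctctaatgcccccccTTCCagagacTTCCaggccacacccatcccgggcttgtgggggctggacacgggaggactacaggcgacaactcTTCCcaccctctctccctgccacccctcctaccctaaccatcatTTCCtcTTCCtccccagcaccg
The core occurred 4 times in the Flt1 window, 5 times in Kdr, 2 times in Tek and 9 times in Tie1, counting both strands. It is short and common, and 96% of 32851 promoter windows of this length held it, with a median of 3 matches. The matches are therefore a description of the sequence. Genome positions of the genes (GRCm38) were chr5:147561604-147726011 for Flt1, chr5:75932827-75978458 for Kdr, chr4:94739289-94874976 for Tek and chr4:118471191-118490061 for Tie1.

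In healthy colon the question was which sorted gate held each ligand and receptor. Stroma exceeded epithelium for 8 of the 10 members, and 38.1% of all genes tested were called in this comparison in either direction. All 5 receptors were higher in stroma. Kdr was at 16.9, 22.2, 22.9 and 2.75 RPKM in stromal replicates 1 to 4 against 0.00801, 0.00500, 0.0192 and 0.0793 RPKM in epithelium. The groups did not overlap, although the fourth stromal library, with the lowest endothelial and the highest fibroblast markers (220% of the group mean), was well below the other 3. The log2 fold change was 6.98 ± 1.52 for Kdr (edgeR adjusted p = 0.00546), 5.91 ± 1.47 for Flt1 (edgeR adjusted p = 0.011) and 5.84 ± 0.625 for Nrp1 (edgeR adjusted p = 0.000162). For the Tie receptors it was 7.51 ± 1.01 for Tek (edgeR adjusted p = 0.000481) and 8.18 ± 1.12 for Tie1 (edgeR adjusted p = 0.000532). Tek did not follow the fourth library down, with 11.9, 10.6, 12.8 and 12.6 RPKM.

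Among ligands, Vegfc was at 7.0, 7.33, 7.26 and 5.32 RPKM in healthy stroma and 0.0113 to 0.343 RPKM in healthy epithelium, a log2 difference of 4.34 ± 0.809 (edgeR adjusted p = 0.00249). Pgf had 30 to 113 counts per library in healthy stroma and 0 in each epithelial library. With 3 counts per library as the floor, Pgf was at least 6.41-fold higher in stroma (edgeR adjusted p = 0.00128). Among called members Vegfa differed least, by 1.01 ± 0.289 (edgeR adjusted p = 0.0205). Vegfb (0.81 ± 0.433) and Angpt2 (0.12 ± 0.661) were not called. Of 21 other VEGF and angiopoietin pathway genes tested, 18 were higher in stroma and 0 lower, among them the phosphatase of Tie2, Ptprb (31.9 against 0.0993 RPKM, log2 7.04), and the ligand Vegfd (7.26 against 0.0375 RPKM, log2 6.85). The list median was 3.90 on the log2 scale against 0.14 for all genes. The Vegfa call was lost when all 40 libraries entered 1 fit (adjusted p up to 0.147 over the alternatives) and without 3 of the 8 libraries.

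Within the tumor, Vegfa was highest in the monocytes. Levels were 24.6, 29.0, 56.4 and 47.8 RPKM in tumor monocyte replicates 1 to 4. They were 8.52, 9.72, 7.04 and 5.60 RPKM in tumor neutrophils, 4.92, 5.28, 7.02 and 5.64 in tumor epithelium and 6.33, 6.07, 4.34 and 3.77 in tumor stroma. The lowest tumor monocyte library exceeded the highest library of any other tumor population. Monocytes made up 68.0% of the sum of the 4 group means, which counts each population equally and not by its number of cells. Vegfa was higher in monocytes than in neutrophils by 1.67 ± 0.353 on the log2 scale (edgeR adjusted p = 0.00615), and lower in stroma than in monocytes by 3.17 on that scale (SE 0.374, edgeR adjusted p = 0.000127). Neutrophils exceeded epithelium by 1.32 ± 0.350 (edgeR adjusted p = 0.0105) although their ranges in RPKM overlapped. This last difference was not called without tumor neutrophil replicate 2 (edgeR adjusted p = 0.147) nor on the RPKM scale.

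Vegfa is on chr17:46016993-46032369 (GRCm38, minus strand). The window of its annotated upstream start is shown because Vegfa changed in more comparisons than any other member, and capitals mark GGGCGG, the GC box bound by Sp factors.
Vegfa (chr17:46032328-46032627, minus strand): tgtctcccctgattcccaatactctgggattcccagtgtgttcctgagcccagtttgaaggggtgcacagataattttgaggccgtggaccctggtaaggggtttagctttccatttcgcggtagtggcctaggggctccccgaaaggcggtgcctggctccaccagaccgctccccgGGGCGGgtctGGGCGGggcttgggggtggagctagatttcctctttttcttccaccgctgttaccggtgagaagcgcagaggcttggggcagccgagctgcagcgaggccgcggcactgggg
GGGCGG or its reverse complement CCGCCC occurred 2 times here and in 35.7% of all promoter windows. The core of the hypoxia response element, ACGTG or CACGT, was not in this window, had 1 match in the window of a second annotated Vegfa start (chr17:46025114-46025413), and was in 19.6% of all windows, and CTTTGA or TCAAAG, a core of Wnt-responsive TCF/LEF sites, was in none of the windows printed here and in 16% of all. These searches cover only the letters of each window.

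**Figure D2:**
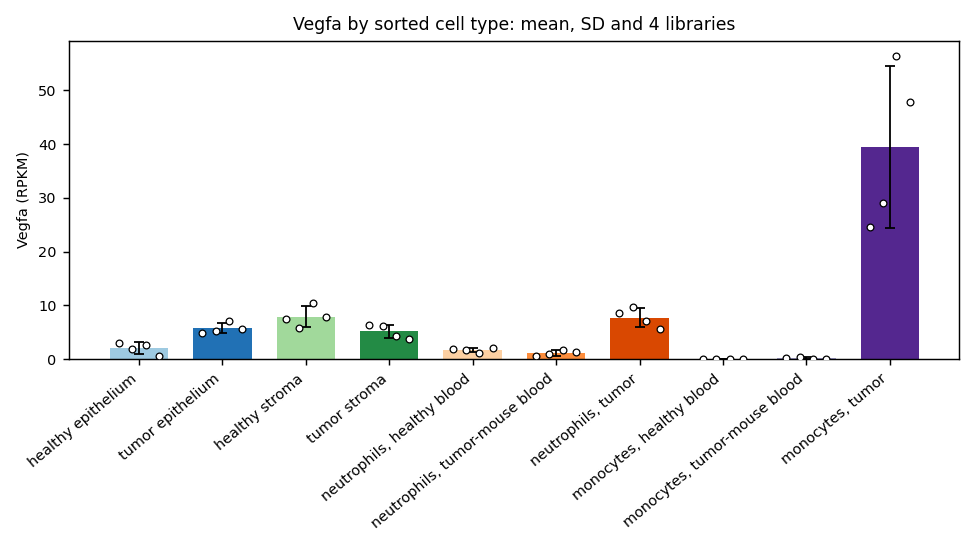
Vegfa in RPKM in the 10 groups, with bars for the mean, error bars for the SD and points for the 4 libraries of each group. Tumor monocytes (39.5 ± 15.1 RPKM) stood above all other groups, and blood monocytes lay close to 0.

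The other members were spread differently over the tumor. Of the 10 members, 8 were called between tumor stroma and monocytes, where 22.7% of all genes were called. Vegfa was lower in stroma, and 7 members were higher there, with log2 differences of 3.14 ± 0.946 for Angpt2 (edgeR adjusted p = 0.0253), 4.43 ± 0.725 for Flt1 (edgeR adjusted p = 0.00099), 4.57 ± 1.11 for Vegfb (edgeR adjusted p = 0.00838) and 6.99 ± 1.5 for Vegfc (edgeR adjusted p = 0.00441). Kdr, Tek and Tie1 exceeded monocytes by 7.02, 8.26 and 8.23 on the log2 scale. Nrp1, at 1.49, 1.67, 1.64 and 1.48 RPKM in tumor monocytes, differed by 1.78 ± 0.950 (edgeR adjusted p = 0.194), and was called with tumor stromal replicates 3 and 4 alone (log2 2.74, edgeR adjusted p = 0.0307). Between tumor stroma and tumor epithelium 3 of 10 members were called, Kdr (7.19 ± 1.60), Tie1 (7.54 ± 1.60) and Nrp1 (3.97 ± 1.04), all higher in stroma, against 4.12% of all genes. Libraries of different tumor populations share numbers in their titles, which no source used here says to mark the mouse. With the title number as a block 0 of the 3 were called (edgeR adjusted p = 0.0716 for Kdr, 0.0622 for Tie1 and 0.105 for Nrp1), and the count fell from 8 to 3 for stroma against monocytes. Calls of all genes moved over the settings run too, from 138 to 1804 around 783 against epithelium and from 333 to 7092 around 4321 against monocytes. The share of all genes under this block alone is not given here. With tumor stromal replicates 3 and 4 alone, 5 of 10 were called, Tek and Flt1 being added, against 10.9% of all genes. These libraries were chosen for their endothelial transcripts after the data were seen. The added calls, and that of Nrp1 over monocytes, are therefore no independent support.

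Tumor monocytes and neutrophils differed in 3 of 10 members, against 15.5% of all genes, and in 1 with the title number as a block, which lost Vegfa. Over the settings run, calls of all genes went from 911 to 5293 around 2954. Beside Vegfa, Vegfc was at 0.000314 to 0.0448 RPKM in monocytes and 0.165 to 0.612 RPKM in neutrophils, a log2 difference of -5.47 ± 1.42 (edgeR adjusted p = 0.018). Tie1 was called lower in monocytes (log2 -4.47, edgeR adjusted p = 0.0493) at levels of at most 0.285 RPKM in either population, and it was called in 2 of the 16 fits that left out a library. Between tumor neutrophils and tumor epithelium 2 of 10 members were called, against 24.7% of all genes. These were Vegfa, above, and Flt1, lower in neutrophils by 1.84 on the log2 scale (SE 0.650, edgeR adjusted p = 0.0484), called in 4 of the 16 fits that left out a library.

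Related genes varied over the tumor populations too. Of the other VEGF and angiopoietin pathway genes, 11 of 21 were higher and 1 lower in stroma than in monocytes (list median 2.75 on the log2 scale, all genes 0.14), and 4 of 21 were higher and 0 lower in stroma than in epithelium (list median 0.52, all genes -0.01). Flt4, the receptor of Vegfc, was among the latter at 2.09 ± 2.43 against 0.0367 ± 0.0279 RPKM (log2 5.67, edgeR adjusted p = 0.0332). Of endothelial genes that VEGF is known to induce or that mark tip cells, 11 of 14 were higher and 0 lower in stroma than in monocytes (list median 5.04), led by the tip cell proteoglycan Esm1 (8.33 ± 9.02 against 0.0195 ± 0.0243 RPKM). Of 12 hypoxia genes, 5 were higher and 0 lower in tumor neutrophils than in tumor epithelium (list median 1.20, all genes -0.20), and 0 were higher and 2 lower in tumor monocytes than in tumor neutrophils (list median -0.66, all genes -0.31). Slc2a1 was at 59.7 ± 20.4 RPKM in tumor neutrophils, 55.5 ± 16.6 in tumor monocytes, 13.3 ± 1.02 in tumor stroma and 12.3 ± 3.66 in tumor epithelium.

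Neutrophils of the tumor differed from neutrophils in the blood of tumor-bearing mice in 4 of 7 members tested, all higher in the tumor, where 17.9% of all genes were called. Tissue and blood were handled differently before sorting, and the part of handling was not tested. Vegfa was at 8.52, 9.72, 7.04 and 5.60 RPKM in tumor neutrophils and 0.503, 0.949, 1.72 and 1.30 RPKM in blood neutrophils. The groups did not overlap, and the log2 fold change was 2.90 ± 0.510 (edgeR adjusted p = 0.00363). It was called under every alternative run and without any library, with an edgeR adjusted p of 0.0074 without tumor neutrophil replicate 1, the library with the most epithelial markers. Vegfc was at 0.295, 0.612, 0.165 and 0.211 RPKM in the tumor and at most 0.055 RPKM in blood (log2 3.76 ± 0.937, edgeR adjusted p = 0.0196), a call lost with the replicate number as a block (edgeR adjusted p = 0.0865) and without blood replicate 1, 2 or 3 (edgeR adjusted p of 0.0744, 0.0728 and 0.0631). Angpt2 was at 0.294, 0.431, 0.112 and 0.239 RPKM against 0.0733, 0.0551, 0.00756 and 0.0138 RPKM (log2 3.08 ± 0.942, edgeR adjusted p = 0.045), and 7 of the 8 fits that left out a library lost this call. Pgf had 39, 0, 18 and 1 counts in tumor neutrophils and 0 in every blood library, and was not tested.

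Flt1, which leukocytes of the monocyte lineage are also known to carry, rose in tumor neutrophils. Its levels were 1.78, 0.117, 0.275 and 0.606 RPKM against 0.0212, 0.0536, 0.0554 and 0.0237 RPKM in blood, without overlap. The log2 fold change was 3.99 ± 0.771 (edgeR adjusted p = 0.00562), and without tumor neutrophil replicate 1 the edgeR adjusted p was 0.0142. Epithelial markers in the 4 tumor libraries were at 69.8, 12.7, 15.5 and 5.06% of the tumor epithelial level. Blood endothelial markers were at 5.32, 0.0964, 1.23 and 1.98% of the healthy stromal mean. Flt1 itself was at 3.53 RPKM in tumor epithelium and 22.4 RPKM in healthy stroma. The library highest in Flt1 and in both sets of markers was replicate 1. The part of other cells in this rise was not tested. On the scale of log2(RPKM + 1) Flt1 was not called (limma adjusted p = 0.103). Nrp1 was at 0.380, 1.92, 0.239 and 0.411 RPKM against 0.0491 to 0.246 RPKM and was not called (log2 2.88 ± 0.948, edgeR adjusted p = 0.0593), nor was Kdr (log2 2.49, edgeR adjusted p = 0.113).

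In tumor monocytes Vegfa was far above blood monocytes, and Nrp1 was below them. These were 2 of 5 members tested, and 17.1% of all genes were called. Vegfa was at 24.6, 29.0, 56.4 and 47.8 RPKM in tumor monocytes and 0.206, 0.375, 0.0248 and 0.0194 RPKM in blood monocytes of tumor-bearing mice. The tumor libraries held 5497 to 14730 counts of Vegfa and the blood libraries 5 to 105. The log2 fold change of Vegfa was 8.23 ± 0.921 (edgeR adjusted p = 0.000229), and no alternative and no left-out library removed the call. Epithelial markers in the tumor monocyte libraries were at 0.613 to 14.3% of the tumor epithelial level, and tumor epithelium held 5.71 RPKM of Vegfa. The part of other cells in the Vegfa level of tumor monocytes was not tested.

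Nrp1, which encodes a receptor of semaphorins as well as of VEGF, was at 8.65, 4.90, 5.25 and 6.23 RPKM in blood monocytes of tumor-bearing mice and at 1.49, 1.67, 1.64 and 1.48 RPKM in tumor monocytes. Every tumor library was below every blood library, and the log2 fold change was -1.72 ± 0.232 (edgeR adjusted p = 0.000675). The call was lost only when all 40 libraries entered 1 fit. Flt1 was at 0.390 to 0.697 RPKM in the tumor and 0.588 to 1.14 RPKM in blood, overlapped, and was not called (log2 -0.34 ± 0.312, edgeR adjusted p = 0.508). Pgf had 13, 93, 0 and 60 counts in tumor monocytes and 0 in each blood library, at least 13.4-fold higher over a floor of 3 counts per library, but it was not tested.

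**Figure D3:**
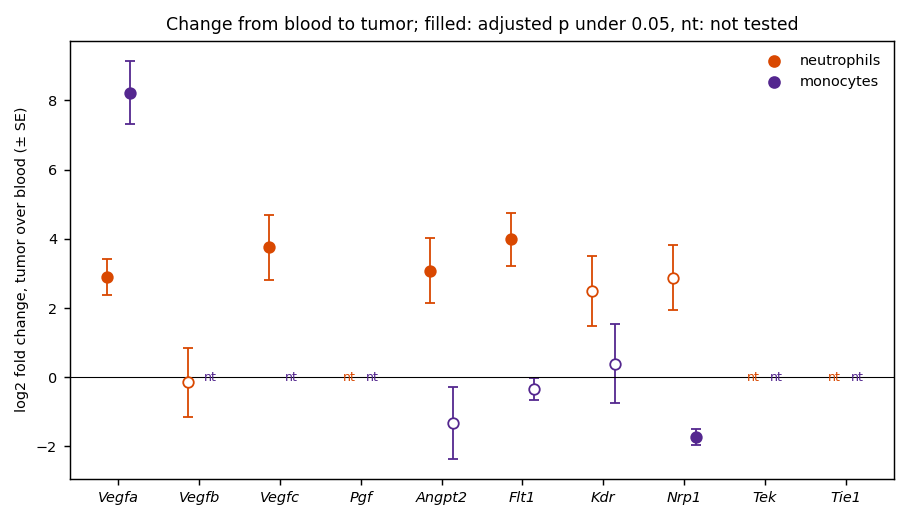
Log2 fold change (tumor over blood of tumor-bearing mice) with its SE for each of the 10 genes in neutrophils and monocytes, 4 libraries per group. Filled symbols mark called genes and "nt" genes that were not tested. Vegfa was called higher in both cell types, Flt1 in neutrophils and Nrp1 lower in monocytes.

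The changes from blood to tumor were compared between monocytes and neutrophils as an interaction term, which was called for 3 of 8 members tested and for 3.99% of all genes. The rise of Vegfa was larger in monocytes by 5.46 ± 0.984 on the log2 scale (edgeR adjusted p = 0.00574). For Flt1 the difference was -4.18 ± 0.799 (edgeR adjusted p = 0.00802) and for Nrp1 -4.50 ± 0.980 (edgeR adjusted p = 0.0172). The Flt1 term was not called by limma on log2 RPKM with either pseudocount. Epithelial markers were at 5.06 to 69.8% of the tumor epithelial level in tumor neutrophils and at 0.613 to 14.3% in tumor monocytes. Tumor epithelium held 3.53 RPKM of Flt1, and the part of other cells in the Flt1 term was not tested.

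Hypoxia genes and other secreted factors accompanied these changes. Of 9 hypoxia response genes tested in neutrophils, 5 were higher in the tumor and 0 lower, with a list median of 1.68 on the log2 scale against 0.11 for all genes. Examples are the glucose transporter Slc2a1 (59.7 ± 20.4 against 17.3 ± 2.87 RPKM, edgeR adjusted p = 0.0161) and the oxygen sensor Egln3 (20.1 ± 8.46 against 3.21 ± 1.41 RPKM, edgeR adjusted p = 0.00222). In monocytes 4 of 11 were higher and 0 lower (list median 0.94, all genes -0.03), among them Slc2a1 (55.5 ± 16.6 against 3.40 ± 1.05 RPKM, edgeR adjusted p = 2.25e-05) and the mitophagy gene Bnip3 (1.34 ± 0.403 against 0.171 ± 0.0932 RPKM, edgeR adjusted p = 0.00326). Of other angiogenic and angiostatic factors, 5 of 9 were higher and 1 lower in tumor neutrophils, and 5 of 7 were higher and 0 lower in tumor monocytes. Thbs1, which encodes the angiostatic thrombospondin-1, was at 248 ± 114 RPKM in tumor monocytes against 5.27 ± 2.65 in blood, and at 66.0 ± 26.5 RPKM in tumor neutrophils against 2.26 ± 1.58 in blood. Of the other VEGF and angiopoietin pathway genes, 4 of 8 were higher in tumor neutrophils (Sema3c, a ligand of neuropilins, at 0.688 against 0.00641 RPKM) and 5 of 13 in tumor monocytes (Plxna1, a semaphorin co-receptor, at 0.973 against 0.178 RPKM), with 0 lower in either. Of endothelial genes that VEGF is known to induce or that mark tip cells, 5 of 10 were higher in tumor neutrophils and 2 of 8 in tumor monocytes, among them in neutrophils the nuclear receptor Nr4a1 (31.0 ± 7.20 against 1.31 ± 1.12 RPKM), and 0 were lower. The medians of the pathway, endothelial and other-factor lists were 2.33, 3.03 and 4.19 on the log2 scale in neutrophils and 2.30, 0.575 and 3.36 in monocytes.

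Tumor epithelium differed from healthy epithelium in 3 of 9 members tested, all higher in the tumor, where 22.6% of all genes were called. Vegfa was at 4.92, 5.28, 7.02 and 5.64 RPKM against 3.07, 1.89, 2.63 and 0.616 RPKM, and the groups did not overlap. The ratio of mean RPKM was 2.79, and the log2 fold change from the counts, which were scaled for composition, was 0.87 ± 0.243 (edgeR adjusted p = 0.0266). Leaving out any of 6 of the 8 libraries lost this call (edgeR adjusted p up to 0.0801), as did fitting all 40 libraries together (edgeR adjusted p = 0.305).

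Pgf, whose product binds Flt1 but not Kdr, was present in every tumor epithelial library and in no healthy one. Its counts were 96, 51, 233 and 96 in the tumor (1.05, 0.528, 1.68 and 0.599 RPKM) and 0 in each of the 4 healthy libraries. With 3 counts per library as the floor, Pgf was at least 16.9-fold higher (edgeR adjusted p = 0.00063), and it was called in every alternative that tested it. Flt1 itself was at 2.67, 4.18, 3.52 and 3.76 RPKM in tumor epithelium and 0.233, 0.00526, 0.0197 and 0.163 RPKM in healthy epithelium. The counts behind it were 2078 to 5107 and 5 to 216, and the groups did not overlap. The log2 fold change of Flt1 was 3.60 ± 1.12 (edgeR adjusted p = 0.0419), and the ratio of mean RPKM was 33.6. Leaving out any of 6 of the 8 libraries raised its edgeR adjusted p above the threshold, to at most 0.0894.

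No other receptor that was tested was called in the epithelium. Kdr was at 0.0539, 0.0623, 0.0225 and 0.0245 RPKM in tumor epithelium and was not called (log2 -1.33 ± 1.23, edgeR adjusted p = 0.494), and Nrp1 (0.243 to 0.487 against 0.120 to 0.394 RPKM) was not called either. Tek was at 0.0553 to 0.181 RPKM in tumor and 0.00496 to 0.0415 RPKM in healthy epithelium, without overlap and with a ratio of mean RPKM of 4.70, and was not called from the counts (log2 0.90 ± 1.03, edgeR adjusted p = 0.59). Tie1 was at most 0.0221 RPKM and was not tested. Flt1 was 49.6, 67.1, 157 and 153 times Kdr, in RPKM, in tumor epithelial replicates 1 to 4, compared with 1.33 to 1.53 times in healthy stroma. In tumor stroma this ratio was 37.2 and 31.9 in replicates 1 and 2, the libraries with epithelial markers at 97.0 and 51.9%, and 1.97 and 1.81 in replicates 3 and 4.

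Endothelial markers in the sorted epithelium were split. Of 12 blood endothelial markers 7 were tested, 4 were higher in tumor epithelium and 0 lower. Cdh5, the endothelial cadherin, was at 4.12 ± 0.149 against 0.0787 ± 0.0900 RPKM (log2 4.62 ± 0.951, edgeR adjusted p = 0.00563). The transcription factors Sox17 (7.98 against 0.0908 RPKM) and Sox18 (1.76 against 0.0710 RPKM) and the surface protein Ecscr (4.54 against 0.0842 RPKM) were the others. Pecam1 (0.164 against 0.114 RPKM, edgeR adjusted p = 0.769), Emcn (0.0238 RPKM), Plvap (0.0168 RPKM) and Erg (0.0269 RPKM) stayed near 0 in tumor epithelium, and Cldn5 was at 0 in all healthy and at most 0.162 RPKM in tumor libraries. The summed level of the 12 markers was 16.4 to 21.3 RPKM in tumor and 0.425 to 0.862 RPKM in healthy epithelium. Of 5 lymphatic endothelial markers, 2 were tested and 1 was higher, the transcription factor Prox1 (47.5 ± 3.45 against 0.575 ± 0.739 RPKM, edgeR adjusted p = 0.000557). Flt1, Cdh5 and Prox1 were therefore high in libraries in which Kdr, Emcn and Plvap were at or near 0.

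**Figure D4:**
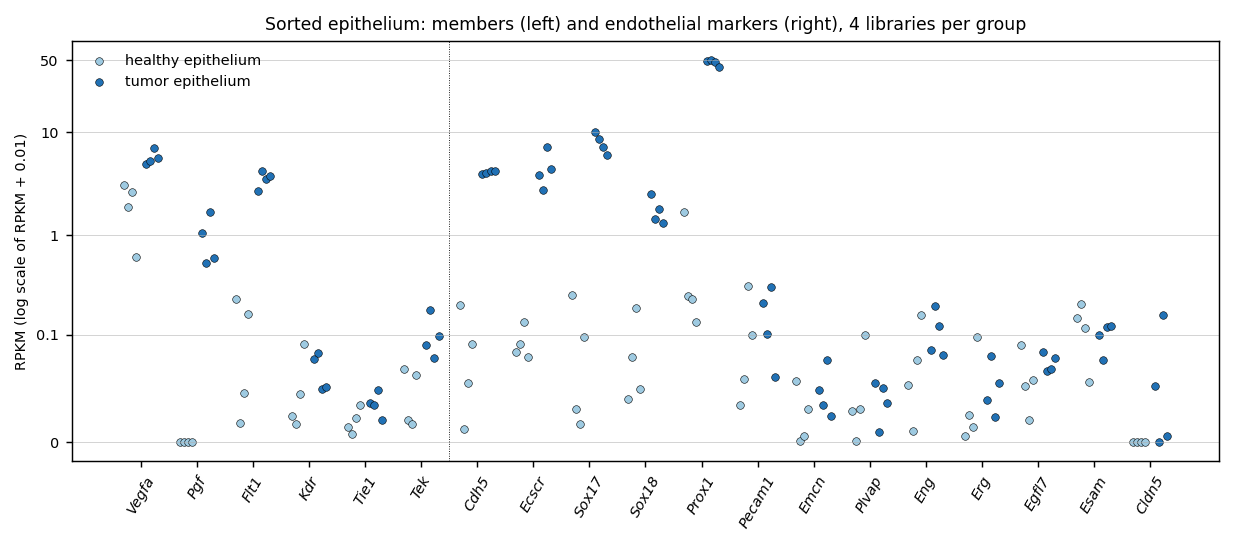
RPKM (log scale of RPKM + 0.01) of 6 of the 10 genes and of endothelial markers in sorted epithelium, 1 point per library, 4 healthy and 4 tumor. Vegfa, Pgf, Flt1, Cdh5, Ecscr, Sox17, Sox18 and Prox1 lay above the healthy libraries without overlap, whereas Kdr, Tie1, Pecam1 and Emcn overlapped.

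Among the other pathway genes in tumor epithelium, 7 of 16 tested were higher and 1 lower. The semaphorins Sema3e (0.900 against 0.0124 RPKM, log2 5.14) and Sema3f (3.00 against 0.0464 RPKM, log2 4.51) and the glypican Gpc1 (1.86 against 0.0471 RPKM, log2 4.76) rose, and Nrp2, a co-receptor of Vegfc, fell (0.620 against 1.5 RPKM, log2 -1.72). Of 12 hypoxia genes, 4 were higher and 2 lower. Slc2a1 (log2 1.10) and Hif1a (log2 0.98) rose whereas Epas1, which encodes HIF-2 alpha, fell (0.831 against 2.88 RPKM, log2 -2.42). Of 13 endothelial genes that VEGF is known to induce or that mark tip cells, 2 were higher (Hey1 and Egr3) and 2 lower (Nid2 and Kcne3). Of 10 other angiogenic and angiostatic factors, 4 were higher and 2 lower. The list medians were 1.16 (pathway), 0.57 (hypoxia), 0.97 (endothelial) and 1.45 (other factors) on the log2 scale, against -0.01 for all genes.

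Tumor stroma against healthy stroma gave no called member. With all 8 libraries 0 of 10 members were called by edgeR, limma-voom or DESeq2, and 0 had an unadjusted p under 0.05, where 9.55% of all genes were called. The SEs of the members ran up to 1.36 on the log2 scale. Kdr was at 0.0952, 0.116, 14.1 and 13.1 RPKM in tumor stromal replicates 1 to 4, and Tek at 0.0945, 0.0881, 8.69 and 9.90. Tie1 was at 0.0653, 0.0386, 5.46 and 5.81 RPKM, and Nrp1 at 0.432, 0.472, 15.3 and 10.5. In each of these genes replicates 1 and 2 lay far below replicates 3 and 4, as did the blood endothelial markers (summed levels of 20.8 and 19.3 against 191 and 185 RPKM). Replicates 1 and 2 also held more epithelial transcripts, with Epcam at 51, 31.5, 12.8 and 5.43 RPKM in replicates 1 to 4. In tumor epithelium the same endothelial markers summed to 16.4 to 21.3 RPKM. In such bulk libraries, a smaller share of endothelial cells among the sorted cells and less RNA per endothelial cell cannot be told apart.

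Set against the endothelial markers of the same library, Angpt2 was higher and Nrp1 lower in tumor stroma with all 8 libraries, and neither difference passed in every fit that left out a library. Each member's log2(RPKM + 0.01) less the median of the same over the 12 blood endothelial markers was compared by exact two-sided permutation tests, whose smallest possible p is 0.0286 for 4 against 4 libraries. Angpt2 was at 0.603, 0.391, 2.43 and 2.42 RPKM in tumor stroma and 1.37, 1.12, 1.23 and 0.225 RPKM in healthy stroma. Relative to the markers it was 2.68 higher in the tumor on the log2 scale (exact permutation p = 0.0286). The ratio of Angpt2 to the marker median was 2.62, 1.37, 0.286 and 0.271 in tumor replicates 1 to 4. In healthy replicates 1 to 4 it was 0.118, 0.116, 0.0902 and 0.132. Most markers were near 0 in tumor replicates 1 and 2, and the relative levels of all members there rest on them. Tumor epithelium held 0.397 RPKM of Angpt2, and the part of epithelial transcripts in these ratios was not tested. Nrp1 was at 30.8, 36.0, 29.0 and 13.7 RPKM in healthy stroma, and relative to the markers it was lower in the tumor by 1.15 on the log2 scale (difference -1.15, exact permutation p = 0.0286). The ratio of Nrp1 to the marker median was 2.65, 3.67, 2.11 and 7.7 in healthy replicates 1 to 4, replicate 4 having the highest fibroblast markers (220% of the group mean). Fibroblast markers were at 1.17 to 3.85% of that mean in tumor stroma, and the part of fibroblasts in the Nrp1 difference was not tested. With Pecam1, Cdh5 and Cldn5 alone as markers the exact permutation p was 0.0286 for Angpt2 and 0.171 for Nrp1, and Kdr (difference -1.01) and Tek (-1.32) passed at 0.0286. In tumor replicates 3 and 4 against healthy replicates 1 to 3, with all 12 markers, Kdr differed by -0.184 and Tek by 0.0701. When 1 library was left out, Angpt2 did not pass in each of the 4 fits without a healthy library (exact permutation p = 0.0857), and Nrp1 did not pass in each of the 4 without a tumor library (exact permutation p = 0.0571). Flt1 was 1.39 higher (exact permutation p = 0.0571, and 0.0286 without tumor replicate 4), Kdr differed by -1.05 (exact permutation p = 0.143), Tek by -1.36 (exact permutation p = 0.229) and Tie1 by -0.42 (exact permutation p = 0.543). These p-values were not adjusted over the 10 members.

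The comparison was also made between the libraries rich in endothelial markers, tumor stromal replicates 3 and 4 against healthy stromal replicates 1 to 3, a choice made after the data were seen. Here 2 of 10 members were called, against 13.9% of all genes. Angpt2 was higher in the tumor (log2 1.25, edgeR adjusted p = 0.0173) and Nrp1 lower (log2 -1.04, edgeR adjusted p = 0.0313). Fibroblast markers were at 1.17 to 3.85% of the healthy stromal mean in tumor stroma, and their part in the Nrp1 difference was not tested here either. Kdr, Tek, Tie1 and Flt1 were not called. Relative to the endothelial markers, the Angpt2 difference was 1.38 (exact permutation p = 0.1, the smallest that 2 against 3 libraries allow) and the Nrp1 difference -0.91 (exact permutation p = 0.2). With the same tumor libraries against all 4 healthy ones, 0 of 10 members were called by edgeR, against 6.14% of all genes. In that fit Vegfa had an unadjusted p of 0.0399. Angpt2 (chr8:18690263-18741562, GRCm38) overlaps Mcph1, which is on the opposite strand. Strand use in counting was not stated, and whether exons of the 2 genes overlap was not examined. The part of Mcph1 reads in the Angpt2 counts was not tested. Mcph1 was at 0.576 to 0.884 RPKM in tumor stroma and 0.381 to 0.783 RPKM in healthy stroma.

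**Figure D5:**
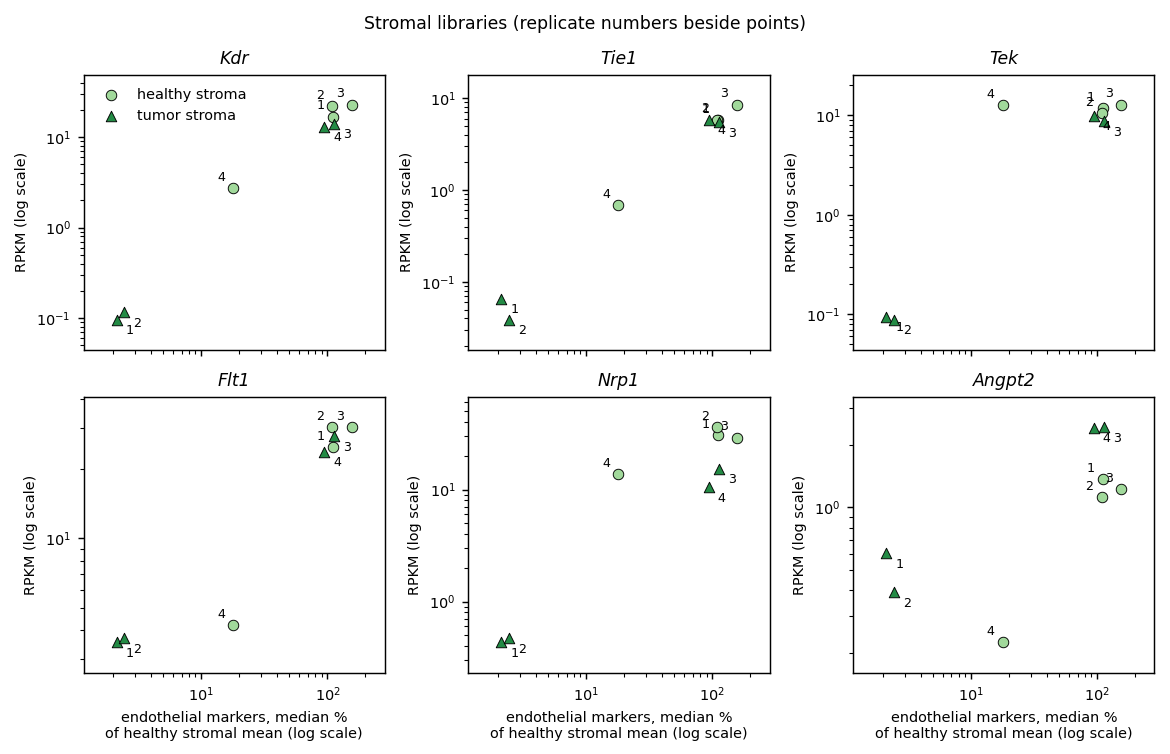
RPKM of 6 members (log scale) in each stromal library against the median of 12 blood endothelial markers in that library, as a percent of the healthy stromal mean (log scale), with replicate numbers beside the points. Kdr, Tie1 and Nrp1 of tumor replicates 1 and 2 lay at the bottom left, and Angpt2 of tumor replicates 3 and 4 (2.43 and 2.42 RPKM) lay above the healthy libraries.

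Of the ligands in tumor stroma, Vegfc and Angpt2 were low in replicates 1 and 2, like the receptors, and Vegfa and Pgf were not. Vegfa, at 6.33, 6.07, 4.34 and 3.77 RPKM, did not fall in replicates 1 and 2, and its level overlapped healthy stroma at 7.47, 5.81, 10.4 and 7.88 RPKM (log2 -0.22 ± 0.286). Tumor epithelium held 5.71 RPKM of Vegfa and 0.397 RPKM of Angpt2, and replicates 1 and 2 held the most epithelial markers of the tumor stromal libraries. The part of epithelial transcripts in these levels was not tested. Pgf was at 1.22, 0.903, 0.351 and 0.0932 RPKM and was higher in replicates 1 and 2, in which epithelial markers were also higher. Vegfc was at 0.308, 0.0875, 3.98 and 3.34 RPKM, below every healthy stromal library (5.32 to 7.33), with a log2 fold change of -1.53 ± 0.912 that was not called (edgeR adjusted p = 0.339). Of 22 other pathway genes, 0 were higher and 2 lower, Vegfd (0.213 against 7.26 RPKM, log2 -4.80) and Sema3d (0.0642 against 1.00 RPKM, log2 -3.66). Of 12 hypoxia genes 1 was higher, Slc2a1 (13.3 ± 1.02 against 6.20 ± 1.18 RPKM, edgeR adjusted p = 0.00742). Of 14 endothelial genes that VEGF is known to induce or that mark tip cells 0 were called in either direction, and 3 of 13 other factors were lower, Serpinf1, Fgf2 and Thbs2, beside fibroblast markers at 1.17 to 3.85% of the healthy level. The list medians were -0.51 (pathway), 0.88 (hypoxia), -0.33 (endothelial) and -1.59 (other factors) on the log2 scale, against 0.03 for all genes.

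In blood, few members differed between tumor-bearing and healthy mice. In neutrophils Flt1 was called, 1 of 6 members tested, against 6.52% of all genes. It was at 0.0212, 0.0536, 0.0554 and 0.0237 RPKM in tumor-bearing mice and 0.147, 0.157, 0.141 and 0.260 RPKM in healthy mice, so every library of tumor-bearing mice was lower. The log2 fold change was -2.18 ± 0.455 (edgeR adjusted p = 0.021), and leaving out any of 5 of the 8 libraries lost the call (edgeR adjusted p up to 0.0615). Kdr, at 0.0109 to 0.0325 against 0.0471 to 0.109 RPKM, did not pass (log2 -1.82 ± 0.5, edgeR adjusted p = 0.0576). Platelet markers also differed between these libraries, at 198 and 192% of their reference in a pair of healthy neutrophil libraries, at 1.99 and 8.81% in the other pair, and at 3.13 to 38.3% in those of tumor-bearing mice. Vegfa was at 1.85, 1.68, 1.08 and 2.00 RPKM in healthy mice and overlapped the tumor-bearing group (log2 -0.49 ± 0.387, edgeR adjusted p = 0.515). Among the other factors 1 of 6 was higher, Prok2, a secreted angiogenic peptide made by neutrophils (16.1 ± 6.32 against 0.192 ± 0.152 RPKM, edgeR adjusted p = 0.00152). Of 9 hypoxia genes 3 were higher and 0 lower, among them Hif1a (6.27 ± 0.801 against 3.19 ± 0.655 RPKM, edgeR adjusted p = 0.00964). Of 6 endothelial genes that VEGF is known to induce or that mark tip cells 1 was higher, the adhesion molecule Mcam (3.52 against 0.439 RPKM), and of 7 other pathway genes 0 were called. The list medians were -0.46 (other factors), 0.92 (hypoxia), -0.42 (endothelial) and -0.23 (pathway) on the log2 scale, against -0.00722 for all genes.

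In blood monocytes 0 of 7 members were called by edgeR, limma-voom or DESeq2, against 0.216% of all genes. Nrp1 was the 1 member with an unadjusted p under 0.05, at 8.65, 4.90, 5.25 and 6.23 RPKM in tumor-bearing and 10.6, 9.67, 7.90 and 10.4 RPKM in healthy mice (log2 -0.54 ± 0.203, edgeR adjusted p = 0.422). Vegfa was at most 0.0628 RPKM in healthy and 0.375 RPKM in tumor-bearing mice (log2 1.86 ± 0.925, edgeR adjusted p = 0.555). Of the 4 lists of related genes, 0 genes were called, and their medians were 0.23 (pathway), -0.83 (endothelial), 0.16 (hypoxia) and 0.18 (other factors) on the log2 scale, against 0.02 for all genes.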

How the data were processed

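RNA of sorted cells was amplified and sequenced, and reads were mapped by the authors to mm10 with Bowtie2 on their processing platform. Annotation release, strand use and the handling of multiply mapped reads are not given in the sources used here. The authors deposited expected counts per gene (99.6% of the values above 0 are not whole) and the RPKM they derived by scaling to gene length and library size. The totals are given in the report, and depth limits precision for genes with few counts. Each SE is the absolute log2 fold change divided by the square root of the quasi-likelihood F statistic. It therefore includes the spread between libraries, whereas the floors cover counting error only.

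Expected counts were rounded and tested with edgeR 4.0.16 (R 4.3.3): filterByExpr, TMM scaling, robust quasi-likelihood F test, Benjamini-Hochberg over all genes tested, called at adjusted p under 0.05. Pairs of groups were fitted alone, except that the 4 tumor populations shared 1 fit, as did the 4 groups of the interaction. Members relative to endothelial markers were tested by two-sided exact permutation of log2(RPKM + 0.01). Alternatives were limma 3.58.1 (voom, and on log2 RPKM with pseudocounts of 1 and 0.1), DESeq2 1.42.0, other scaling and filters, a replicate block and leaving out each library. The scripts were tested on simulated counts.

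The members and lists were chosen with earlier results of these data known. Beyond the members, per comparison, list and direction, the 3 called genes that changed most, if their mean log2 CPM was 1 or more, were eligible to be named, with markers and, for each member with a group mean of at least 1 RPKM, its 3 most alike genes. Promoter windows (RefSeq, GRCm38.p6) matched 9 of the 10 members, not Angpt2. Gene positions come from a mouse GRCm38 annotation.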

Additional observations from a re-analysis of the deposited data

Results flagged for a closer look

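In 4 of the 46 groups of 4 libraries examined, 1 library stood apart from the other 3 by Dixon's criterion, which chance alone meets in about 1 in 20 groups. Vegfb in blood monocytes of tumor-bearing mice was at 1.01 RPKM in replicate 1 and at most 0.170 RPKM in the others. Vegfc in healthy stromal cells was at 5.32 RPKM in replicate 4, below the other 3 at 7.0 to 7.33 RPKM, in the library with the lowest endothelial markers of its group (18% of the group mean). Nrp1 in tumor neutrophils was at 1.92 RPKM in replicate 2 and at most 0.411 RPKM in the others. Tek in healthy blood monocytes was at 1.12 RPKM (264 counts) in replicate 2 and at most 0.00739 RPKM in the others.

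For 3 members the interaction term between the sorted monocyte and neutrophil libraries, tumor against blood, was called. The part of other cells in these terms was not tested. Monocytes minus neutrophils, the log2 difference was 5.46 for Vegfa, -4.18 for Flt1 and -4.50 for Nrp1.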

How the results depend on the processing

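Of the counts of members called per comparison, 113 of 144 values under other settings and 104 of 144 values without a library were within 1.5 times the main count, and no called member changed sign. Of the counts of all genes called, 99 of 142 values under other settings and 103 of 136 without a library were within that span. For tumor against blood neutrophils, calls of all genes ran from 1424 to 7194, with 2442 in the main fit. A changed member count is therefore not a result about the members alone. The cause of the changes was not tested. For tumor against blood neutrophils the count of 4 became 7 with all 40 libraries in 1 fit and 2 with the replicate block. For monocytes 2 became 1, for tumor against healthy epithelium 3 became 1 and for healthy stroma against epithelium 8 became 2 when at least 10 counts were asked of every library, a filter that leaves fewer members tested. For tumor against healthy stroma 0 became 2 with tumor replicates 3 and 4 against healthy replicates 1 to 3. For blood neutrophils 1 became 2 with DESeq2, 0 with all 40 libraries and 0 with the block. For tumor stroma against epithelium 3 became 0 with voom, 5 with DESeq2, 1 with at least 10 counts, 0 with the block, 0 and 0 on log2 RPKM with pseudocounts of 1 and 0.1, 0 with the number in the title as a block and 5 with tumor stromal replicates 3 and 4 alone. For tumor stroma against monocytes 8 became 2 with at least 10 counts, 5 with the block and 3 with the title number as a block. For tumor monocytes against neutrophils 3 became 5 with DESeq2 and 1 with at least 10 counts, with either pseudocount and with the title block. For tumor neutrophils against epithelium 2 became 4 with DESeq2 and 1 with voom, with an absolute log2 fold change above 1.5 and with either block. For the interaction 3 became 5 with DESeq2.

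Leaving out 1 library gave 2 to 5 for tumor neutrophils, 2 to 3 for tumor monocytes, 1 to 3 for epithelium, 0 to 0 for stroma, 0 to 1 for blood neutrophils, 0 to 0 for blood monocytes and 7 to 8 for healthy colon. It gave 0 to 5 for tumor stroma against epithelium, 7 to 8 against monocytes, 1 to 3 for tumor monocytes against neutrophils, 0 to 3 for tumor neutrophils against epithelium and 3 to 4 for the interaction. For members relative to endothelial markers it gave 1 to 2, from 2. The replicate numbers were not shown to pair libraries. Deviations of same-numbered libraries correlated at -0.136 to 0.0502 for tumor and blood neutrophils and at 0.0554 to 0.327 for blood monocytes, and in no comparison was every pair over 0.1. The depth limits what can be said of Pgf, Tek and Tie1 in blood cells, where most libraries held under 10 counts.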

Other observations

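Prok2, which encodes an angiogenic peptide, was far higher in neutrophils than in the monocytes or the epithelium of the tumor. It was at 13.5 ± 7.24 RPKM in tumor neutrophils, 0.00702 ± 0.00114 RPKM in tumor monocytes (log2 -11.0 for monocytes against neutrophils, edgeR adjusted p = 0.00014) and 0.0186 ± 0.0127 RPKM in tumor epithelium (log2 10.5 for neutrophils against epithelium, edgeR adjusted p = 1.58e-05). Thbs1 was at 248 ± 114 RPKM in tumor monocytes against 52.7 ± 14.2 RPKM in tumor stroma (log2 -2.48 for stroma against monocytes, edgeR adjusted p = 0.0011). Thbs1 was also the gene most alike to Vegfa over the 40 libraries.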
